A study of Homo sapiens with 6 samples.

Results

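Retinoic acid signaling was described here through 9 genes, chosen by gene symbol from the 50868 genes with values in the deposited table. They were the retinal dehydrogenases ALDH1A1, ALDH1A2 and ALDH1A3, the retinal reductase DHRS3, the retinoic acid binding protein CRABP2, the receptors RARA, RARB and RARG, and the retinoic acid hydroxylase CYP26B1. UM-UC-3 and 5637 are established human bladder cancer cell lines, grown in DMEM and in RPMI medium. Cells of each line were infected with a lentivirus that carried a control hairpin (sh-NC) or 1 of 2 hairpins against the long noncoding RNA LNMAT1 (sh-LNMAT1#1 and sh-LNMAT1#2), and all were then kept in puromycin for 2 weeks. Every group thus carried a hairpin construct and had passed through puromycin, and no uninfected cells were compared. RNA was sequenced from 6 libraries, 1 for each construct and line, and gene levels were deposited as FPKM, fragments per kilobase of gene, scaled to the library's depth. With 1 library per group, a difference between libraries had no replicate check.

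Retinoic acid is made from vitamin A within the cell. Retinol is oxidised to retinal, the ALDH1A enzymes turn retinal irreversibly into retinoic acid, DHRS3 returns retinal to retinol, and CYP26 enzymes clear retinoic acid by hydroxylation. CRABP2 carries retinoic acid to the nucleus, where RAR proteins, paired with RXR proteins, bind direct repeats in DNA and switch on target genes. RARB, CYP26 genes and DHRS3 are themselves known targets, and vitamin A is needed to keep the urothelium from turning squamous.

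The depth of the libraries lay between 19375000 and 24707000 fragments. LNMAT1 is listed as LINC01296, which shares sequence with the copies DUXAP8 and DUXAP9, so its level is uncertain. In UM-UC-3, LINC01296 stood at 14.2 FPKM under sh-NC and at 6.20 and 6.70 FPKM under sh-LNMAT1#1 and #2. In 5637, LINC01296 stood at 4.70 and 2.14 FPKM under sh-LNMAT1#1 and #2, and at 11.7 FPKM in the library labelled 5637 sh-NC. The library labelled 5637 sh-NC stood apart from the other 5637 libraries. Over the 12717 genes whose mean reached 1 FPKM, its root mean square log2 difference was 0.30 from UM-UC-3 sh-LNMAT1#1 and 1.48 from each 5637 sh-LNMAT1 library, whereas the 5637 sh-LNMAT1 libraries differed by 0.37 from each other. UM-UC-3 sh-LNMAT1#1 was farther from its own line, at 0.67 from sh-NC and 0.63 from sh-LNMAT1#2, which differed by 0.43 from each other. Markers also set the 5637 sh-LNMAT1 libraries apart from the other 4. Of 14 urothelial and epithelial markers, 11 reached 1 FPKM in each 5637 sh-LNMAT1 library, 3 in the library labelled 5637 sh-NC and 2 or 3 in the UM-UC-3 libraries, with UPK1B listed at 0 throughout. Their summed level was 742 and 988 FPKM in the 5637 sh-LNMAT1 libraries and 26.3 to 32.7 FPKM in the other 4. EPCAM, an epithelial adhesion protein, was 33.8 and 35.6 FPKM in the 5637 sh-LNMAT1 libraries and at most 0.0210 FPKM elsewhere. The 4 mesenchymal-like markers summed to 122 and 118 FPKM in the 5637 sh-LNMAT1 libraries and to 138 to 363 FPKM in the other 4, but they did not move together. VIM was 3.85 and 4.14 against 103 to 332 FPKM and ZEB1 at most 0.0264 against 8.67 to 12.7 FPKM, whereas FN1, at 110 and 102 against 0.816 to 2.27 FPKM, went the other way and made up most of the 5637 sums. Of the other cell types, 6 leukocyte markers summed to 1.01 and 1.05 FPKM in the 5637 sh-LNMAT1 libraries and 13.0 to 31.0 FPKM in the rest, mostly CD68, with CD3E and LYZ listed at 0 throughout. The 4 endothelial markers summed to at most 0.294 FPKM, and the 4 fibroblast markers to 8.33 and 6.58 FPKM in the 5637 sh-LNMAT1 libraries, mostly COL1A1, and at most 0.452 FPKM in the rest. Each 5637 sh-LNMAT1 library was therefore compared both with the library labelled 5637 sh-NC and, without either control library, with the UM-UC-3 library of the same hairpin. Line and culture medium cannot be told apart. The part of these marker differences in the values below was not tested, and fewer cells of a type and less RNA per cell cannot be told apart in bulk RNA.

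The promoter sequences of RARB, ALDH1A3 and ALDH1A1 are shown because the levels below turn on these 3 genes. RARB (ENSG00000077092) lies on chromosome 3 from 25174332 to 25597932, ALDH1A3 (ENSG00000184254) on chromosome 15 from 100877714 to 100916626, and ALDH1A1 (ENSG00000165092) on chromosome 9 from 72900662 to 73080442, all on GRCh38. The 250 bases before a RefSeq transcription start on GRCh38.p14 are given for each, and each stretch lies within the longer span that the table gives the gene. Capitals in RARB mark the half-sites of a direct repeat, and capitals in ALDH1A3 and ALDH1A1 mark CpG dinucleotides.
RARB, chr3:25428013-25428262, plus strand: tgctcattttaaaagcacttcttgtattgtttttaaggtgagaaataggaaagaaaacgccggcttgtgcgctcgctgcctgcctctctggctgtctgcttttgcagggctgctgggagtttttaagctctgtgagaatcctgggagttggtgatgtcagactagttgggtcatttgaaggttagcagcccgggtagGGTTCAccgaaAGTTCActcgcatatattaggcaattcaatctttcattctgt
ALDH1A3, chr15:100879581-100879830, plus strand: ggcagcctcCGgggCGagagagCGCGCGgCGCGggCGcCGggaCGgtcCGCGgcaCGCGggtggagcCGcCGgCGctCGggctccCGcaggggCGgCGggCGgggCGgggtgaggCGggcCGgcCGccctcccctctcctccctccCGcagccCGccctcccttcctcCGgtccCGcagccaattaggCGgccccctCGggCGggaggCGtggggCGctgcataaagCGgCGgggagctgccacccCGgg
ALDH1A1, chr9:72953054-72953303, minus strand: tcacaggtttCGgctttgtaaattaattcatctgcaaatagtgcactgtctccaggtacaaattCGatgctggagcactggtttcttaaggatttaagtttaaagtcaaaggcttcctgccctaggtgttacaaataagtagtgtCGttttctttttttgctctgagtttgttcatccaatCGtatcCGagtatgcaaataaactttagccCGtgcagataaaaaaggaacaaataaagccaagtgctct
The RARB repeat reads GGTTCA on its left and AGTTCA on its right with 5 spacer bases between them, from 53 to 37 bases before the start, and an element of this form in this promoter is the textbook retinoic acid response element. The half-sites searched were AGGTCA, the textbook form, GGGTCA, a variant of it, and the RARB pair. Direct repeats of any of them were looked for on both strands of the promoter windows of all genes, which reach 250 bases before and 50 bases after a start. A spacing of 5 bases was found in 31 of 35116 windows (0.0883%). Among the 17 windows of the 9 genes, it was found in 1 of the 4 RARB windows, a match that the choice of half-sites fixed and from which nothing is read. A spacing of 2 bases was found in 14 windows (0.0399%) and a spacing of 1 base in 46 windows (0.131%), in neither case in a window of the 9 genes. A match of letters is not a measured binding site.

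The windows also differed in CpG content. The single ALDH1A3 window held 46 CpG dinucleotides, a count that 2.89% of all windows reached, and the single ALDH1A1 window held 7, reached by 63.2%. The median over all windows was 14. ALDH1A2 had 1 window with 41 and another with 1, and the 4 RARB windows held 7, 33, 1 and 2, with the direct repeat in the window of 7. CRABP2 had 20, CYP26B1 had 19 and RARG had 14, while the 3 windows of DHRS3 held 31, 13 and 5 and those of RARA 12, 19 and 22. DNA methylation was not measured in these libraries.

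ALDH1A3, the retinal dehydrogenase that gave the gene set its name, was almost silent in 4 libraries and among the most abundant transcripts in the other 2. In UM-UC-3, ALDH1A3 stood at 0.0898 FPKM under sh-NC and at 0.0929 and 0.0902 FPKM under sh-LNMAT1#1 and #2. In 5637, it stood at 428 FPKM under sh-LNMAT1#1 and 479 FPKM under sh-LNMAT1#2, and at 0.0988 FPKM in the library labelled 5637 sh-NC. Thus the library labelled 5637 sh-NC had the level of the UM-UC-3 libraries, and the 5637 sh-LNMAT1 libraries lay apart from the other 4. The share of all genes that split the libraries this way was not counted. Nothing was therefore read from the split itself, here or for the genes below. In order of FPKM, ALDH1A3 ranked 39 of 50868 genes in 5637 sh-LNMAT1#1 and 36 in 5637 sh-LNMAT1#2, and between 20466 and 21504 in the other 4. The low levels rested on few fragments, between 1.18 and 12.8 per library depending on the transcript length assumed. Against a floor of 3 fragments per library on the shortest transcript, ALDH1A3 was at least 1810-fold higher in 5637 than in UM-UC-3 with sh-LNMAT1#1 and at least 2090-fold higher with sh-LNMAT1#2. Against the library labelled 5637 sh-NC, it was at least 1830-fold and 2050-fold higher. Such floors cover counting error only. These values chose the gene and are a description, not a test.

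ALDH1A1, a second retinal dehydrogenase and a widely used marker of tumour-initiating cells, had the opposite distribution. In UM-UC-3, ALDH1A1 stood at 3.33 FPKM under sh-NC, 14.9 under sh-LNMAT1#1 and 6.63 under sh-LNMAT1#2. The library labelled 5637 sh-NC held 21.6 FPKM, the highest of all 6. ALDH1A1 was listed at 0 in 5637 sh-LNMAT1#1 and was 0.0142 FPKM, at most 0.783 fragments, in 5637 sh-LNMAT1#2. Again the other 4 libraries lay apart from the 5637 sh-LNMAT1 libraries, a split from which nothing was read. A value of exactly 0 can be a failed estimate in this table, since the mitochondrial ribosomal RNA MT-RNR1 was listed at 0 in 4 libraries, and no fold is printed against it. ALDH1A1 was at least 8.94-fold higher in UM-UC-3 than in 5637 with sh-LNMAT1#2, and at least 29.1-fold higher in the library labelled 5637 sh-NC than in 5637 sh-LNMAT1#2. Within UM-UC-3, ALDH1A1 in FPKM was 4.48-fold higher than sh-NC with sh-LNMAT1#1 and 1.99-fold higher with sh-LNMAT1#2, and these comparisons share the sh-NC library. The hairpins themselves differed, with 2.25 times as much ALDH1A1 in UM-UC-3 sh-LNMAT1#1 as in sh-LNMAT1#2.

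ALDH1A2 (ENSG00000128918, chromosome 15, 57953424 to 58497866), the main retinal dehydrogenase of the embryo, was low throughout. In UM-UC-3, ALDH1A2 stood at 0.00458 FPKM under sh-NC and at 0.00762 and 0.00740 FPKM under sh-LNMAT1#1 and #2. In 5637, it stood at 0.351 and 0.359 FPKM under sh-LNMAT1#1 and #2, and was listed at 0 in the library labelled 5637 sh-NC. The UM-UC-3 values stand for at most 1.46 fragments, so no level could be told from the floor there. At a mean under 1 FPKM over the 6 libraries, ALDH1A2 was left out of the counts of changed genes.

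Since FPKM is scaled to gene length, the 3 dehydrogenases could be set against each other within a library. In UM-UC-3, they summed to 3.42 FPKM under sh-NC, 15.0 under sh-LNMAT1#1 and 6.72 under sh-LNMAT1#2, and in the library labelled 5637 sh-NC they summed to 21.7 FPKM. ALDH1A1 made up 97.2%, 99.3%, 98.5% and 99.5% of that sum in the same order. In 5637 sh-LNMAT1#1 and #2 the sums were 428 and 480 FPKM, and ALDH1A3 made up 99.9% of each. Each library therefore held 1 predominant ALDH1A transcript, ALDH1A1 in the UM-UC-3 libraries and the library labelled 5637 sh-NC, and ALDH1A3 in the 5637 sh-LNMAT1 libraries.

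**Figure D1:**
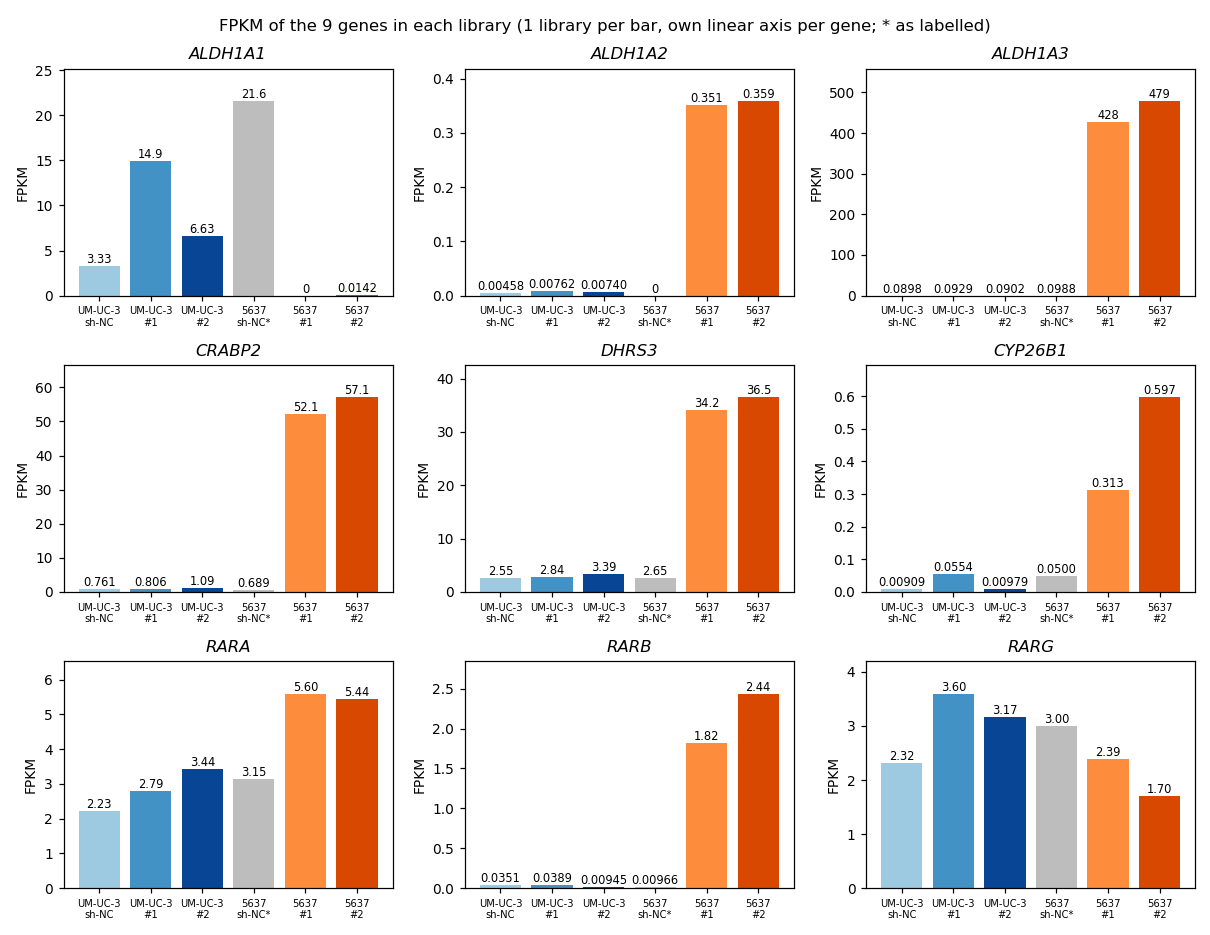
Bars give the FPKM (y axis, linear from 0, a separate scale for each gene) of the 9 genes in each of the 6 libraries (x axis), 1 library per bar, with #1 and #2 for the hairpins against LNMAT1 and an asterisk for the library labelled 5637 sh-NC. ALDH1A3 stands at 428 and 479 FPKM in the 5637 sh-LNMAT1 libraries and under 0.1 FPKM in the other 4, while ALDH1A1 is highest, at 21.6 FPKM, in the library labelled 5637 sh-NC.

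DHRS3 and CRABP2, which act on retinal and on retinoic acid, followed ALDH1A3. In UM-UC-3, DHRS3 (ENSG00000162496, chromosome 1, 12567910 to 12617731) stood at 2.55 FPKM under sh-NC and at 2.84 and 3.39 FPKM under sh-LNMAT1#1 and #2. In 5637, DHRS3 stood at 34.2 and 36.5 FPKM under sh-LNMAT1#1 and #2, and at 2.65 FPKM in the library labelled 5637 sh-NC. DHRS3 was 12-fold higher in 5637 than in UM-UC-3 with sh-LNMAT1#1 and 10.7-fold higher with sh-LNMAT1#2. Its spread over the other 4 libraries was small beside that step. In UM-UC-3, CRABP2 (ENSG00000143320, chromosome 1, 156699606 to 156705816) stood at 0.761 FPKM under sh-NC and at 0.806 and 1.09 FPKM under sh-LNMAT1#1 and #2. In 5637, CRABP2 stood at 52.1 and 57.1 FPKM under sh-LNMAT1#1 and #2, and at 0.689 FPKM in the library labelled 5637 sh-NC. CRABP2 was 64.6-fold higher in 5637 than in UM-UC-3 with sh-LNMAT1#1 and 52.3-fold higher with sh-LNMAT1#2. For both genes the 5637 sh-LNMAT1 libraries lay above all others, and the library labelled 5637 sh-NC lay within or just below the UM-UC-3 range.

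The receptors divided into RARB, which moved with ALDH1A3, and RARA and RARG, which varied less. In UM-UC-3, RARB stood at 0.0351 FPKM under sh-NC and at 0.0389 and 0.00945 FPKM under sh-LNMAT1#1 and #2. In 5637, RARB stood at 1.82 and 2.44 FPKM under sh-LNMAT1#1 and #2, and at 0.00966 FPKM in the library labelled 5637 sh-NC. The low values stand for at most 3.21 fragments. Against the floor of 3 fragments, RARB was at least 7.76-fold higher in 5637 than in UM-UC-3 with sh-LNMAT1#1 and at least 10.7-fold higher with sh-LNMAT1#2, and at least 7.83-fold and 10.5-fold higher than in the library labelled 5637 sh-NC. RARB is the gene whose promoter window holds the direct repeat printed above.

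In UM-UC-3, RARA (ENSG00000131759, chromosome 17, 40309192 to 40357643), the most widely expressed receptor, stood at 2.23 FPKM under sh-NC and at 2.79 and 3.44 FPKM under sh-LNMAT1#1 and #2. In 5637, RARA stood at 5.6 and 5.44 FPKM under sh-LNMAT1#1 and #2, and at 3.15 FPKM in the library labelled 5637 sh-NC. The line difference was 2.01-fold with sh-LNMAT1#1 and 1.58-fold with sh-LNMAT1#2. Whether the counting used the strand is not given in the sources used here, so RARA cannot be told apart from the antisense RARA-AS1, which was 2.09 and 1.53 FPKM in the 5637 sh-LNMAT1 libraries and at most 0.1 FPKM elsewhere. In UM-UC-3, RARG (ENSG00000172819, chromosome 12, 53210567 to 53232980), the receptor known from skin and other squamous epithelia, stood at 2.32 FPKM under sh-NC and at 3.60 and 3.17 FPKM under sh-LNMAT1#1 and #2. In 5637, RARG stood at 2.39 and 1.70 FPKM under sh-LNMAT1#1 and #2, and at 3.0 FPKM in the library labelled 5637 sh-NC. RARG was 1.51-fold lower in 5637 than in UM-UC-3 with sh-LNMAT1#1 and 1.87-fold lower with sh-LNMAT1#2, but its ranges overlapped, since 5637 sh-LNMAT1#1 lay above UM-UC-3 sh-NC.

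The summed receptor level was 4.59 to 6.62 FPKM in the UM-UC-3 libraries, 6.15 in the library labelled 5637 sh-NC, and 9.82 and 9.57 in 5637 with sh-LNMAT1#1 and #2. RARB made up 18.6% and 25.5% of the sum in 5637 sh-LNMAT1#1 and #2 and at most 0.765% in the other 4 libraries. RARG made up 24.4% and 17.7% in 5637 sh-LNMAT1#1 and #2 against 47.9% to 56.0% elsewhere. RARA held 43.4% to 51.9% in the 4 libraries and 57.1% and 56.8% in 5637 sh-LNMAT1#1 and #2. RARA was thus the most abundant receptor in 5637 with either hairpin, and RARA and RARG were of similar level elsewhere.

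**Figure D2:**
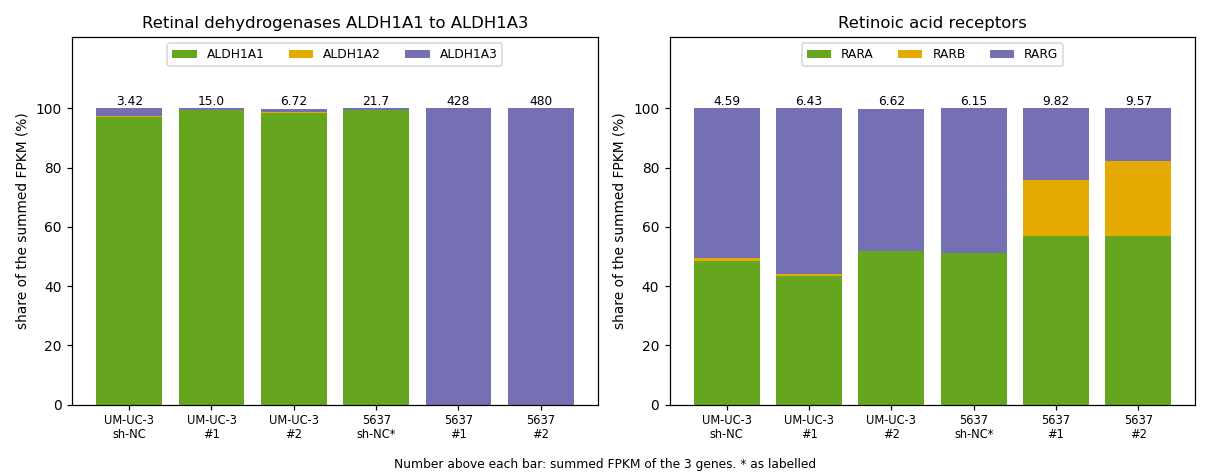
Stacked bars give each gene's share (%) of the summed FPKM of ALDH1A1 to ALDH1A3 (left) and of the 3 retinoic acid receptors (right) in the 6 libraries, with the sum in FPKM above each bar and an asterisk for the library labelled 5637 sh-NC. ALDH1A1 fills at least 97.2% of the left bars in 4 libraries and ALDH1A3 99.9% in the 5637 sh-LNMAT1 libraries, where RARB also takes 18.6% and 25.5% of the receptors.

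In UM-UC-3, CYP26B1 (ENSG00000003137, chromosome 2, 72129238 to 72148038), which hydroxylates retinoic acid, stood at 0.00909 FPKM under sh-NC and at 0.0554 and 0.00979 FPKM under sh-LNMAT1#1 and #2. In 5637, CYP26B1 stood at 0.313 and 0.597 FPKM under sh-LNMAT1#1 and #2, and at 0.05 FPKM in the library labelled 5637 sh-NC. The 5637 sh-LNMAT1 libraries were the highest, but every value was under 1 FPKM, and those of the other 4 stand for at most 6.19 fragments. Its relative CYP26A1, from the wider retinoid list and named after its values were seen, was 0.157 and 0.295 FPKM in the same 5637 libraries and at most 0.0363 FPKM elsewhere.

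Fold changes across genes were taken as differences of log2(FPKM + 0.5), a scale on which low genes change less than in FPKM itself. A gene was counted when it changed at least 2-fold and averaged at least 1 FPKM over the 6 libraries. Of the 9 genes, 6 had that mean, and ALDH1A2, RARB and CYP26B1 did not. ALDH1A3 and CRABP2 had it only through the 5637 sh-LNMAT1 libraries. Against UM-UC-3 sh-NC, 1 of the 6 was higher and 0 were lower with sh-LNMAT1#1, beside 5.17% and 4.98% of all 12717 genes. That gene was ALDH1A1, at a log2 change of 2.01. With sh-LNMAT1#2, 0 of the 6 were higher or lower, beside 1.86% and 1.33% of all genes, and ALDH1A1 had a log2 change of 0.90. The log2 changes of the other 5 lay between 0.00 and 0.54 with the hairpins in UM-UC-3. Both hairpins were set against the same sh-NC library. Between the hairpins in UM-UC-3, ALDH1A1 alone of the 6 passed 2-fold, lower with sh-LNMAT1#2 by a log2 change of -1.11, beside 4.29% of all genes lower and 3.94% higher.

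In 5637 against the library labelled sh-NC, 3 of the 6 were higher and 1 was lower with sh-LNMAT1#1, beside 18.7% and 17.5% of all genes, and 3 were higher and 1 was lower with sh-LNMAT1#2, beside 17.5% and 17.2%. The higher genes were ALDH1A3, with log2 changes of 9.48 and 9.65, CRABP2, with 5.47 and 5.60, and DHRS3, with 3.46 and 3.55, and the lower gene was ALDH1A1, at -5.42 with sh-LNMAT1#2 and listed at 0, counted as 0 FPKM, with sh-LNMAT1#1. In 5637 against UM-UC-3 with the same hairpin, where neither control library entered, 3 were higher and 1 was lower with sh-LNMAT1#1, beside 18.1% and 17.2% of all genes, and likewise with sh-LNMAT1#2, beside 15.2% and 15.6%. The log2 differences were 9.50 and 9.67 for ALDH1A3, 5.33 and 5.18 for CRABP2, and 3.38 and 3.25 for DHRS3, and ALDH1A1 had -3.79 with sh-LNMAT1#2. Both sets of comparisons share the 5637 sh-LNMAT1 libraries. The values of ALDH1A3 depend on the pseudocount, and against UM-UC-3 they were 11.12 and 11.30 with 0.1 and 8.62 and 8.78 with 1 in place of 0.5. Between the hairpins in 5637, 0 of the 6 passed 2-fold, beside 1.11% of all genes higher and 0.865% lower, and the log2 changes ran from -0.40 for RARG to 0.16 for ALDH1A3. Because the 9 genes were chosen with these values known, nothing was read from their counts.

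**Figure D3:**
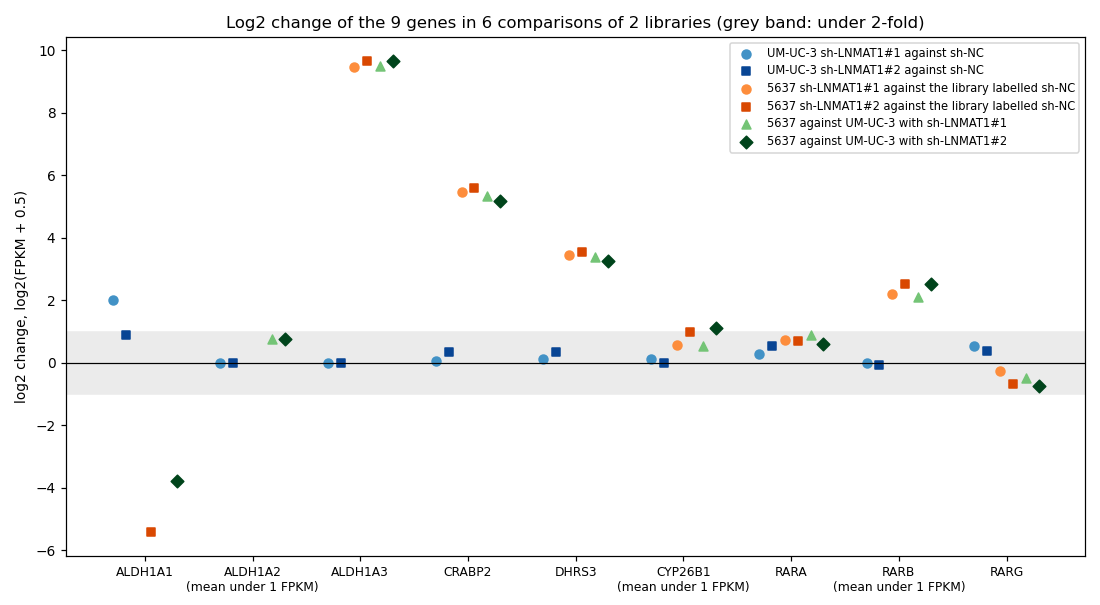
Points give the log2 change, on the scale of log2(FPKM + 0.5), of the 9 genes (x axis) in 6 comparisons of 2 libraries each, with a grey band for changes under 2-fold and no point where 1 of the libraries is listed at 0. In UM-UC-3 against sh-NC, only ALDH1A1 leaves the band (2.01 with sh-LNMAT1#1), whereas ALDH1A3 lies between 9.48 and 9.67 in the 4 comparisons with a 5637 sh-LNMAT1 library.

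The patterns most like that of ALDH1A3 were sought over the 6 libraries, by the root mean square difference in log2(FPKM + 0.5) after centring each gene. The nearest genes included LCN2 (0.15), KRT19 (0.18), MT-RNR1 (0.21) and IL1A (0.49). LCN2, a secreted iron-siderophore binding protein, was 583 and 616 FPKM in 5637 with sh-LNMAT1#1 and #2 and 0.117 to 0.202 FPKM in the other 4. KRT19, a simple-epithelial keratin, was 300 and 409 FPKM against 0.0629 to 0.113. IL1A, an epithelial alarmin cytokine, was 257 and 304 FPKM against at most 0.444. These 3 had the same high pair of libraries as ALDH1A3, and the measure says nothing of shared control. MT-RNR1 was 444 and 588 FPKM in that pair, but its place rests on 4 listed values of 0, which cannot be read as low levels of an RNA that every cell makes.

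The wider pathway was described with 50 other retinoid genes, of which 19 had a mean of at least 1 FPKM. Lines were compared across the 4 sh-LNMAT1 libraries with limma, with the hairpins standing in as the replicates of a line and Benjamini-Hochberg adjustment over 12717 genes, so that p-values measure the spread between hairpins only. Of the 19 genes, 8 were higher in 5637 and 0 were lower at an adjusted p under 0.05, beside 18.5% and 19.1% of all genes. Of the 8, 4 reached the mean of 1 FPKM only through the 5637 sh-LNMAT1 libraries, so that the filter fixed their direction, and no p is given for them. DHRS4, named after its values were seen and not called by limma, had a log2 difference of -1.09 with sh-LNMAT1#1. The list was chosen with earlier results of these data known, so nothing was read from these counts or from the medians below. Leaving out either 5637 sh-LNMAT1 library leaves 1 library for that line. Without 5637 sh-LNMAT1#1, the median limma log2 difference of the 19 genes was 0.41, beside -0.058 over all genes. Without 5637 sh-LNMAT1#2, it was 0.46, beside -0.041. The medians of the same-hairpin log2 differences over the 19 genes were 0.41 and 0.46, beside -0.03 and -0.08 over all genes.

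Genes at least 4-fold apart with both hairpins included PNPLA4 and TGM2. PNPLA4, a retinyl ester hydrolase, was 4.05 and 4.32 FPKM in 5637 with sh-LNMAT1#1 and #2 and at most 0.00796 FPKM in the other 4 libraries, and is among those that passed the filter through 5637 alone. TGM2, a transglutaminase and known retinoic acid target, was 110 and 104 FPKM against 10.2 to 14.8, a limma log2 difference of 3.27 (SE 0.19, adjusted p = 0.000293). For both, the library labelled 5637 sh-NC lay with the UM-UC-3 libraries.

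Of the other called genes, RDH10 and BTG2 are named after their values were seen. RXRA, the partner receptor of the RAR proteins, was 21.0 and 10.4 FPKM in 5637 with sh-LNMAT1#1 and #2, 1.46 to 3.44 FPKM in UM-UC-3 and 2.06 FPKM in the library labelled 5637 sh-NC, a limma log2 difference of 2.01 (SE 0.36, adjusted p = 0.0103). NRIP1, a corepressor of nuclear receptors, was 28.4 and 22.2 FPKM in 5637 with sh-LNMAT1#1 and #2 and 2.95 to 11.8 FPKM in the other 4 libraries, a log2 difference of 2.01 (SE 0.46, adjusted p = 0.0221). RDH10, which oxidises retinol to retinal and also passed the filter through 5637 alone, was 5.46 and 7.25 FPKM in 5637 against 0.629 to 1.14 in the other 4 libraries. BTG2, an antiproliferative gene, had a limma log2 difference of 1.40 (SE 0.36, adjusted p = 0.0322). Genes that did not pass included FABP5 and RXRB, also named after their values were seen. FABP5, which carries retinoic acid to another nuclear receptor, was 26.4 and 29.3 FPKM in 5637 and 22.9 and 23.7 in UM-UC-3 with the hairpins against LNMAT1 (adjusted p = 0.336). RXRB had a log2 difference of -0.51 (SE 0.23, adjusted p = 0.143).

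Of the 31 retinoid genes under the mean of 1 FPKM, 5 reached 1 FPKM in both 5637 sh-LNMAT1 libraries, 2 reached it in any other library and 1 was listed at 0 in all 6. The 5 are 16.1% of the 31, beside 1.75% of all 38151 genes under that mean, of which 13904 were listed at 0 in all 6. The list was chosen with earlier results of these data known and held few genes at 0 throughout, so nothing was read from these shares. Among the 5, named after their values were seen, were the retinol transporter RBP4, at 2.26 and 3.57 FPKM against at most 0.0352, and the retinoic acid responder RARRES1, at 1.73 and 2.80 FPKM against at most 0.0411. RDH13, also among the 5, differed less, at 1.11 and 1.37 FPKM against 0.578 to 1.1 in the other libraries, and so also reached 1 FPKM in UM-UC-3 sh-NC.

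Of 16 other aldehyde dehydrogenases, 10 had a mean of at least 1 FPKM, and 2 were higher and 1 lower in 5637 by the limma comparison of lines, beside 18.5% and 19.1% of all genes. None of the 10 was called (0 higher, 0 lower) when 5637 sh-LNMAT1#1 or 5637 sh-LNMAT1#2 was left out, and 1 was higher without UM-UC-3 sh-LNMAT1#1. The higher genes, named after their values were seen, were ALDH16A1, with a log2 difference of 1.10 (SE 0.27, adjusted p = 0.0272), and ALDH5A1, which clears succinic semialdehyde and reached the mean of 1 FPKM only through 5637. ALDH3B1, which oxidises lipid-derived aldehydes, was 1.10 and 1.27 FPKM in 5637 with sh-LNMAT1#1 and #2 and 4.16 and 4.69 FPKM in UM-UC-3, a log2 difference of -1.55 (SE 0.21, adjusted p = 0.00415). The medians of the 10 genes were -0.21 and 0.06 in the 2 same-hairpin comparisons. This list too was chosen with earlier results of these data known, and nothing was read from its counts. ALDH2, the mitochondrial enzyme of ethanol metabolism, named after its values were seen, was at most 0.0121 FPKM in every library.

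**Figure D4:**
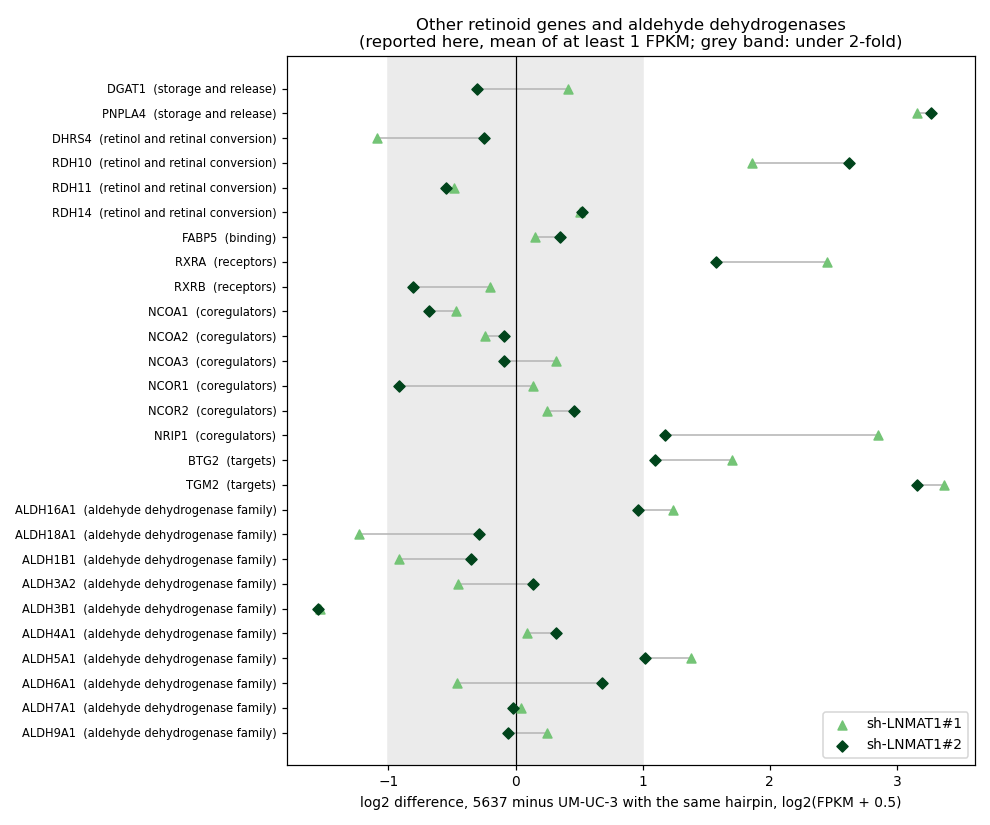
For other retinoid genes and aldehyde dehydrogenases that averaged at least 1 FPKM and are reported here (y axis, with their roles), the points give the log2 difference of 5637 minus UM-UC-3 (x axis, on log2(FPKM + 0.5)) with sh-LNMAT1#1 and with sh-LNMAT1#2, and the grey band marks under 2-fold. TGM2, at 3.37 and 3.16, and PNPLA4, at 3.16 and 3.27, lie farthest right, and ALDH3B1 lies left of the band with both hairpins.

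The knockdown itself was compared by limma over all 6 libraries, adjusted for line, which left 3 residual degrees of freedom. In that comparison limma called 0 of 12717 genes higher (0%) and 0 lower (0%) at an adjusted p under 0.05, and 811 genes had an unadjusted p under 0.05. Every adjusted p in the retinoid and aldehyde dehydrogenase lists was at least 0.569. RXRA had a pooled log2 change of 1.76 (SE 0.46, adjusted p = 0.569). The median log2 change of the 19 retinoid genes was 0.49, and it was -0.01 without the library labelled 5637 sh-NC, beside -0.017 and 0.002 over all genes. When UM-UC-3 sh-NC was left out instead, so that the library labelled 5637 sh-NC was the only control, limma called 2028 genes higher and 1919 lower, among them 9 of the 19 retinoid genes, all higher.

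Within UM-UC-3, the sh-NC library differed by a root mean square log2 difference of 0.67 from sh-LNMAT1#1 and 0.43 from sh-LNMAT1#2. The sh-LNMAT1#1 library was nearer to the library labelled 5637 sh-NC (0.30) than to either other UM-UC-3 library. The part of that likeness in the changes with sh-LNMAT1#1 was not tested. The list genes that changed at least 2-fold in UM-UC-3 were NRIP1, RXRA and ALDH3B1. NRIP1 was 11.8 FPKM under sh-NC, 3.51 with sh-LNMAT1#1 and 9.55 with sh-LNMAT1#2, log2 changes of -1.61 and -0.29. RXRA was 1.46 FPKM under sh-NC and 3.44 and 3.14 with sh-LNMAT1#1 and #2, log2 changes of 1.01 and 0.89. ALDH3B1 was 2.04 FPKM under sh-NC and 4.16 and 4.69 with the hairpins, log2 changes of 0.87 and 1.03. Thus, of the 19 retinoid genes, 1 was higher and 1 was lower with sh-LNMAT1#1, beside 5.17% and 4.98% of all genes. With sh-LNMAT1#2, 0 of the 19 were higher or lower, beside 1.86% and 1.33% of all genes. Of the 10 aldehyde dehydrogenases, 0 were higher or lower with sh-LNMAT1#1, and 1 was higher and 0 were lower with sh-LNMAT1#2. Nothing was read from counts this small. These changes rest on 1 library each.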

How the data were processed

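RNA was extracted with TRIzol and a column kit, libraries were made with a stranded mRNA kit and sequenced on an Illumina instrument. The authors deposited FPKM values per gene in 1 table, and the submitters' processing notes name HISAT2 and hg38. The counting program, its use of strand and the annotation are not given in the sources used here. Samples were grouped by their labels, and 1 entry without values was left out. Of 50868 identifiers, 50110 were in GENCODE 29 and 47483 had the identical position there, including all 9 genes. In 14652 single-exon genes, FPKM came out as whole fragments, within 0.05 fragment, in no less than 99.96% of values, from which the depth was read. For other genes, a lower and an upper fragment number were set from the shortest transcript and from all exons.

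Python 3.11.15 (numpy 2.4.6, pandas 2.3.3, matplotlib 3.10.9) and R 4.3.3 with limma 3.58.1 (lmFit, and eBayes with a trend, on log2(FPKM + 0.5)) were used, and the limma steps were tested on simulated data. No count-based test was run on FPKM. Single libraries were compared without a test at 2-fold. The 9 genes and all lists were chosen with earlier results of these data known. List genes were named when at least 4-fold apart between lines with both hairpins (up to 12) or at least 2-fold changed in UM-UC-3 (up to 6), besides the 5 genes most like ALDH1A3 and LINC01296. Some genes that this rule names are not reported here. Promoter windows came from RefSeq (GRCh38.p14), where all 9 symbols matched. Alternatives were pseudocounts of 0.1 and 1, no filter or 5 FPKM, scaling to the 75th percentile, a 1.5-fold threshold, limma without trend or without the line covariate, a hairpin block, and leaving out each library.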

Additional observations from a re-analysis of the deposited data

Results flagged for a closer look

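For 16 of the 35 retinoid and aldehyde dehydrogenase genes that averaged at least 1 FPKM, both hairpins moved the level one way in UM-UC-3 and the other way in 5637 against the library labelled 5637 sh-NC. They were 2 of the 6 genes described above, 7 of 19 other retinoid genes and 7 of 10 other aldehyde dehydrogenases, beside 4582 of all 12717 genes (36.0%). The count took signs alone, with no minimum size. Some changes in it were near 0, such as 0.02 for DHRS4 in UM-UC-3 with sh-LNMAT1#2. Nothing was read from these shares. The mean log2 change in 5637 minus that in UM-UC-3 was -6.88 for ALDH1A1, from sh-LNMAT1#2 alone in 5637 because the other library is listed at 0, and -0.93 for RARG. Among the other retinoid genes it was 3.84 for NRIP1, 3.45 for TGM2, 0.91 for NCOR1 and 0.71 for DGAT1, and -1.04 for DHRS4, -0.74 for RXRB and -0.31 for NCOA2. Among the aldehyde dehydrogenases it was 1.75 for ALDH5A1, 1.73 for ALDH16A1, 0.50 for ALDH7A1 and 0.44 for ALDH9A1, and -2.11 for ALDH3B1, -1.27 for ALDH18A1 and -1.0 for ALDH1B1. These differences were not tested, with 1 library per group, and each rests on the library labelled 5637 sh-NC, whose nearest library across genes was UM-UC-3 sh-LNMAT1#1. ALDH1A1 in that library, at 21.6 FPKM, was nearest to the 14.9 FPKM of UM-UC-3 sh-LNMAT1#1.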

How the results depend on the processing

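No called value changed direction under any alternative run. At a 1.5-fold threshold, 1 of the 6 genes was higher in UM-UC-3 with sh-LNMAT1#2 in place of 0, and 2 were lower in place of 1 in 5637 with sh-LNMAT1#2, both against the library labelled sh-NC and against UM-UC-3. Without the filter, 5 of the 9 were higher in 5637 than in UM-UC-3 with sh-LNMAT1#2, in place of 3. With a mean of 5 FPKM, where 6250 genes were tested, the limma comparison of lines called 929 genes higher and 1260 lower in place of 2349 and 2427, with 4 of 13 retinoid genes higher and 0 of 4 aldehyde dehydrogenases higher and 0 lower. Leaving out each library in turn, it called between 781 and 2595 genes higher and 464 and 2570 lower, with 5 to 7 retinoid genes higher, 0 to 2 aldehyde dehydrogenases higher and 0 to 1 lower, and the lowest counts came without 5637 sh-LNMAT1#1 or 5637 sh-LNMAT1#2, where the lone library of the line is assumed to vary like the other pair. In the pooled comparison the same step gave 0 to 2028 genes higher, 0 to 1919 lower, 0 to 9 retinoid genes higher, and 0 to 2 aldehyde dehydrogenases higher and 0 to 1 lower. Only the fit without UM-UC-3 sh-NC made calls, and the cause was not tested. With hairpin number as a replicate block, the comparison of lines called 2502 genes higher and 2629 lower, with 8 retinoid genes higher and 0 lower and 2 aldehyde dehydrogenases higher and 1 lower. Same-numbered libraries carry the same hairpin, but their deviations from the line means correlated at 0.03 across 12717 genes, and they were not treated as pairs. Log2 values of ALDH1A1, ALDH1A2, ALDH1A3, RARB and CYP26B1 depend on the pseudocount, since few or no fragments stand behind their low side, and 0.1 in place of 0.5 took RARB in 5637 against UM-UC-3 from 2.11 to 3.79 with sh-LNMAT1#1. The same step moved CRABP2 from 5.33 to 5.85 and DHRS3 from 3.38 to 3.54 with a pseudocount of 0.1. Depth limits ALDH1A2, ALDH1A3, RARB and CYP26B1 outside 5637 sh-LNMAT1.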
